A study of Mus musculus with 267 samples.

Results

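The sites described here are EGR2 ChIP-seq peaks of C57 bone marrow-derived macrophages (BMDMs) that were listed after 24 h of IL-4, had no overlap of 1 bp or more with the peak list of untreated (basal) cells, and overlapped the list of 1 h or of 6 h IL-4. There were 7085 such sites among the 29407 peaks listed at 24 h. A further 14237 were listed only at 24 h and 8085 overlapped the basal list. The 7085 sites are called early-listed below, and not newly gained. The deposited EGR2 tag table, described after the sequences, marks a basal call at 3967 of them. Macrophages were grown from the marrow of healthy female mice, 8 to 12 weeks old, with M-CSF for 7 days, and either received recombinant mouse IL-4 (20 ng/mL) or did not. The time course (basal, 1 h, 6 h and 24 h) was made in C57BL/6J (C57) mice. EGR2 lists of untreated and 24 h cells also came from 4 other strains, SPRET/EiJ (SPRET) and PWK/PhJ (PWK), which are wild-derived, and NOD/ShiLtJ (NOD) and BALB/cJ (BALB). A pair of genotypes was compared untreated and at 24 h, Egr2 fl/fl, which carries the floxed allele without Cre, and LyzM-Cre Egr2 fl/fl, in which a Cre driven by the myeloid LyzM promoter recombines the same allele. Each group held 2 libraries, except 4 basal, 1 at 1 h and 3 at 24 h for Pol II. The study calls them biological replicates but ties none to an animal, so p-values measure only the spread between these libraries. How completely Egr2 was deleted was not checked here, since the tables used here hold no Egr2 expression.

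IL-4 binds its receptor on macrophages and activates the kinases JAK1 and JAK3, which phosphorylate STAT6. STAT6 then enters the nucleus and switches on the genes of alternative activation, such as Arg1. EGR2 is a zinc-finger transcription factor of the early growth response family that binds a GC-rich element and is itself induced by IL-4 in macrophages. Acetylation of histone H3 at lysine 27 (H3K27ac) marks active promoters and enhancers, and RNA polymerase II (Pol II) marks transcription. H3K4me2 lies at both kinds of element and H3K4me3 mainly at promoters. PU.1 and C/EBPβ are lineage factors that open macrophage enhancers, and PPARγ is a nuclear receptor of lipid metabolism that IL-4 also induces.

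Reference sequences of 9 early-listed peaks are shown (mouse build GRCm38, the mm10 of the peak lists, plus strand, from RefSeq), because the results below turn on them. In the first 5 and in the Rwdd1 and Bcat2 sites, capitals mark the EGR core searched, GTGGGNG, or a 9-letter EGR element, GCGNGGGCG, on either strand. The Abca1 and Arg1 peaks held neither. There the capitals mark C/EBP letters, TTGCNNAA on either strand, and STAT6 letters, TTC and GAA with 4 bases between them, respectively. The first 5 are among the named sites with the strongest H3K27ac rises, Abca1 and Rwdd1 had strong falls by genotype, Bcat2 (the last 300 bases of its peak) was among the 5 with the most EGR2 tags at 24 h, and Arg1 is the best known IL-4 gene.
Cish site, chr9:107307946-107308171: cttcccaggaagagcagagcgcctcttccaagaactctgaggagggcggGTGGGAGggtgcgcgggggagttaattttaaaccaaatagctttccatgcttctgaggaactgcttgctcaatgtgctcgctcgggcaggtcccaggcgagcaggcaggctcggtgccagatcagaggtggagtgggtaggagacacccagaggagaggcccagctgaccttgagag
Tex9 site, chr9:72485497-72485773: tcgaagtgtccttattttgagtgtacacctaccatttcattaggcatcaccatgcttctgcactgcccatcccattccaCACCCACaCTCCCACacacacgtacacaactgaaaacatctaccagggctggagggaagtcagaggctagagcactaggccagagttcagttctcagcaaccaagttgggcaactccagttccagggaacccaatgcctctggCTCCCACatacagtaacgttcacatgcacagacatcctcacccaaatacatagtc
Il31ra site, chr13:112551657-112551864: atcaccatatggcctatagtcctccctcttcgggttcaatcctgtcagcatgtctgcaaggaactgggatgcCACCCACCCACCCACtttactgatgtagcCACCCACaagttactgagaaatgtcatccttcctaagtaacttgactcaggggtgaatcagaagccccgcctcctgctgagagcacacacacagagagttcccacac
Batf3 site, chr1:191093638-191093846: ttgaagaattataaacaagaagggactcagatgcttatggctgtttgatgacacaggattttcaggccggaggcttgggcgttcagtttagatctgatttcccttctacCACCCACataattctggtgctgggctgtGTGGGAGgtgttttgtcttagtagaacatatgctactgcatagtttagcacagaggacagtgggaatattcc
Slc7a2 site, chr8:40862015-40862262: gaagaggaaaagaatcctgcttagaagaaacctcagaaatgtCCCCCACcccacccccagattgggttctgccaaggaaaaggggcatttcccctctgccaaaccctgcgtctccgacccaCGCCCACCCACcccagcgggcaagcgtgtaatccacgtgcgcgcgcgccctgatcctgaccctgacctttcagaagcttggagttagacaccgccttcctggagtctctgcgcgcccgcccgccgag
Abca1 site, chr4:53201656-53201864: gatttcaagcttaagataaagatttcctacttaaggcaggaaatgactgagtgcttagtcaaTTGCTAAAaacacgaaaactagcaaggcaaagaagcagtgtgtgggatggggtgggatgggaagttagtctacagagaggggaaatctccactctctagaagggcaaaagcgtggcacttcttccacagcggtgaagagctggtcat
Rwdd1 site, chr10:34016843-34017051: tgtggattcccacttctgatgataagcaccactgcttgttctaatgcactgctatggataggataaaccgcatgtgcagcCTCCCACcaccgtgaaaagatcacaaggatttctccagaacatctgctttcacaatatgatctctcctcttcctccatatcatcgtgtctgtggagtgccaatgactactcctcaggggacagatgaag
Bcat2 site, chr7:45568202-45568501: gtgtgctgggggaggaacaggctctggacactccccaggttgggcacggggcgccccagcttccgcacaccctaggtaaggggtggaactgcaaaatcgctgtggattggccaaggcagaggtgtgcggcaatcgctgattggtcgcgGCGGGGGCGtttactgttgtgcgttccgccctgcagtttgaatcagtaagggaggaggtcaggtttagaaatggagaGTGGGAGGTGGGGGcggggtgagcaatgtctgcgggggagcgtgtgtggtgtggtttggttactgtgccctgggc
Arg1 site, chr10:24930228-24930506: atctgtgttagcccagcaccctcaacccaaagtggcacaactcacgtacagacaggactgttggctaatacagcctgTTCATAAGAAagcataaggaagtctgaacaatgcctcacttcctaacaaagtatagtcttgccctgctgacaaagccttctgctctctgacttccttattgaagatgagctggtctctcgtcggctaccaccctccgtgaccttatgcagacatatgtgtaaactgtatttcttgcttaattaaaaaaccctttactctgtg
The Cish site lay 12032 bp downstream of the Cish start, in no gene. The Tex9 site (6577 bp from the start) and the Il31ra site (42600 bp) were intronic in the genes that name them, as was the Rwdd1 site (2677 bp). The Batf3 site lay 4105 bp upstream of its gene, the Abca1 site 41865 bp, the Bcat2 site 1833 bp and the Arg1 site 2883 bp, all outside genes. The Slc7a2 site was a promoter site, 258 bp upstream of the start.

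Of the early-listed sites, 3251 (45.9%) overlapped both the 1 h and the 6 h list, 2078 the 1 h list alone and 1756 the 6 h list alone. Peaks were 201 to 399 bp wide, with a median of 223 bp. At the edge of the rule, 5 sites had an early overlap under 10 bp, 99.3% an overlap of at least 0.5 of their width, and 57 had the centre of a basal peak within 500 bp without an overlap. The highest deposited score, 1000, was held by 75.2% of early-listed sites, 18.2% of those listed only at 24 h and 97.1% of basal-listed sites.

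The deposited EGR2 tag table did not bear out the absence of basal binding. It marks the conditions in which each of its 30675 sites was called, and it gives the basal mark to 13601 sites where the basal list holds 8437 peaks. The basal mark stood on 3967 of the 7085 early-listed sites (56.0%, exact 95% interval 54.8 to 57.2), on 10.7% of sites listed only at 24 h and on 94.3% of basal-listed sites. It stood on 70.5% of sites in both early lists, 50.2% of those in the 1 h list alone and 36% of those in the 6 h list alone. The lists and marks differed at 1 h too. Of the early-listed sites that overlapped the 1 h list of 13562 peaks, 23.7% carried the 1 h mark, which 7422 table sites had. All of those with a 6 h overlap carried the 6 h mark.

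EGR2 tags (reads normalized to 10000000 per library) were read at the same sites as a description, since peaks called from these libraries chose the members. The median early-listed site had 27.6 and 30.9 tags in the 2 basal libraries, 12.6 and 33.8 at 1 h, 31.4 and 47.4 at 6 h, and 56.6 and 39.4 at 24 h. The 1 h libraries lay on both sides of the basal ones, and both 24 h medians lay above them. Sites listed only at 24 h began lower, at 13.6 and 14.8 tags, and reached 26.9 and 21.1. Basal-listed sites went from 60.9 and 80.6 to 122 and 84.5. Early-listed sites thus lay between the other sets in every library, at 0.383 to 0.503 of the basal-listed median. The libraries differed in the share of tags that fell in any EGR2 site, 10.8% and 14.2% at basal, 5.38% and 13.1% at 1 h, 12.8% and 17.9% at 6 h and 22% and 16% at 24 h, and the part of this in the order of times was not tested.

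**Figure D1:**
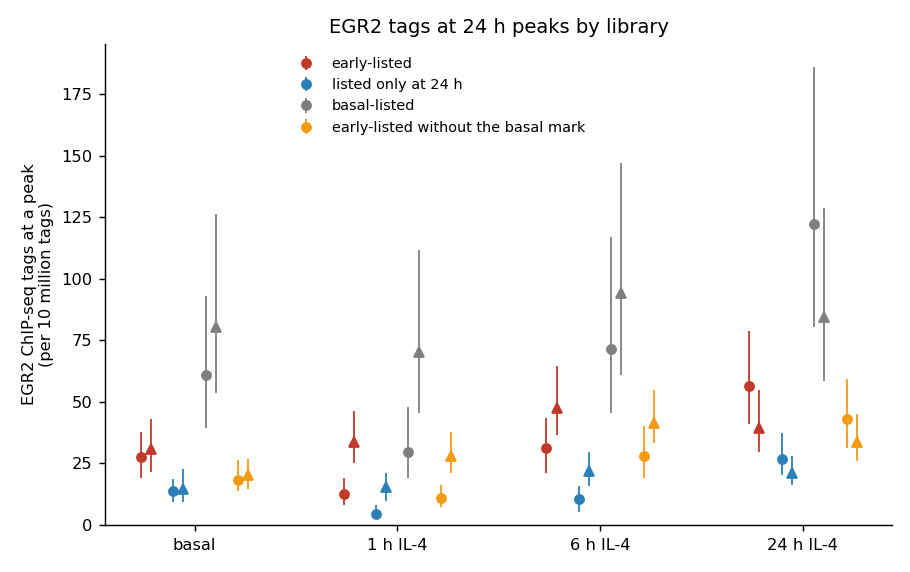
Median normalized EGR2 tags (vertical axis) in each C57 library by time of IL-4 (horizontal axis). The sets are early-listed sites, sites listed only at 24 h, basal-listed sites and early-listed sites without the basal mark. Circles are replicate 1, triangles replicate 2 and bars the quartiles over sites. Early-listed sites went from 27.6 and 30.9 at basal to 56.6 and 39.4 at 24 h. In every library they lay between sites listed only at 24 h and basal-listed sites.

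Counted site by site, 303 early-listed sites (4.28%) had more tags in both 1 h libraries than in both basal ones, where 2.7% of all table sites did, and 1446 (20.4%) had fewer. At 6 h, 2613 (36.9%) were above both basal libraries, against 25% of the table, and at 24 h 4068 (57.4%) were, against 54.6%. The 24 h share was thus near that of the whole table. The lists and this contrast share their libraries, so nothing is read from these counts. The 3118 sites without the basal mark had the larger shares, with 272 (8.72%) above at 1 h, 1643 (52.7%) at 6 h and 2080 (66.7%) at 24 h. Their median tags went from 18.3 and 20.1 at basal to 27.9 and 41.3 at 6 h and 43.1 and 33.6 at 24 h. Of the sites with the basal mark, 50.1% were above at 24 h. The mark is itself a call in basal cells, so leaving marked sites out favours low basal tags. Nothing is read from this difference either.

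The 5 early-listed sites with the most EGR2 tags at 24 h were bound before IL-4 as well. They lay at the starts of Nab1, which encodes a corepressor of EGR proteins, Ubtd2, Tle1, which encodes a Groucho-family corepressor, and Hspd1, which encodes a mitochondrial chaperonin, and 1833 bp upstream of Bcat2, which encodes a branched-chain aminotransferase. All 5 carried the basal mark. The Nab1 site had 324 and 1436 tags at basal, 378 and 492 at 1 h, 566 and 361 at 6 h and 577 and 980 at 24 h, so the basal libraries spanned all later ones. The Bcat2 site had 220 and 287 at basal and 487 and 398 at 24 h, with both 24 h libraries above. H3K27ac at 24 h passed the test at none of the 5.

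Untreated macrophages of the other strains had EGR2 peaks at many of the same places. A basal peak of at least 1 other strain overlapped 88.4% of early-listed sites. The BALB basal list covered 79.7% of them, the NOD list 70.6%, the SPRET list 30.3% and the PWK list 11.3%. These shares followed the length of the lists, which held 28842, 25341, 12301 and 6201 peaks. At 24 h the shares were 83.8% in BALB, 53.4% in NOD, 43.5% in PWK and 72.5% in SPRET. The 24 h lists held 37104, 16604, 14919 and 39458 peaks, and the part of list length in the shares was not tested. Each strain gave early-listed sites a share between that of sites listed only at 24 h (54.2%, 16.4%, 14.2% and 45.2%) and that of basal-listed sites (95.8%, 89.7%, 82.0% and 89.6%). In NOD the 24 h share fell under the basal one, and the NOD 24 h list was itself the shorter, with 16604 peaks against 25341 at basal. All 4 other strains held 27.4% of early-listed sites at 24 h, 5.3% of those listed only at 24 h and 72.5% of basal-listed sites, and none of them held 8.4%, 32.6% and 1.4%. Here and below, intervals cover counting error only, and sites are not replicates of a condition, so differences between sets carry no test.

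**Figure D2:**
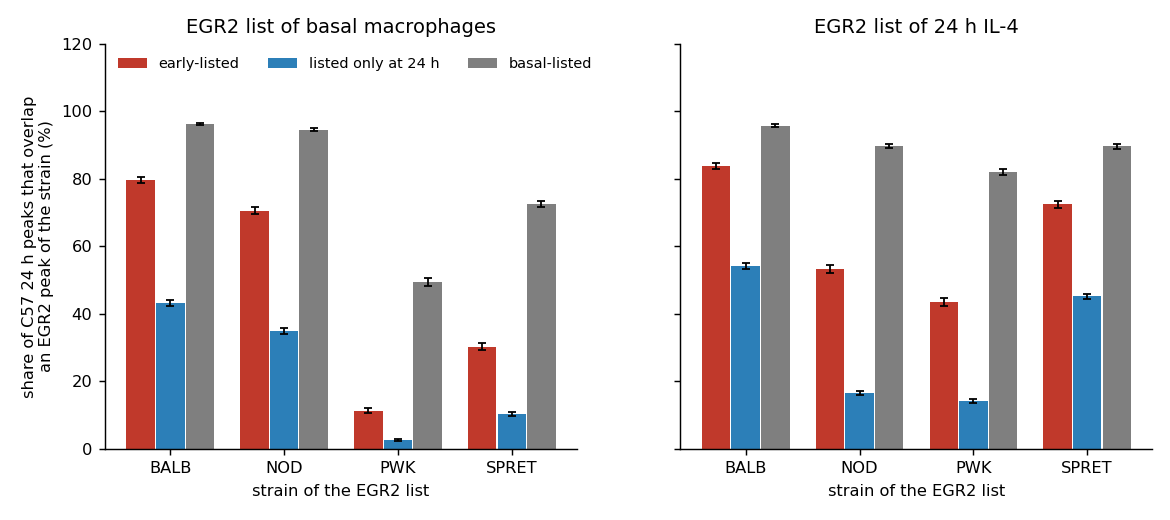
Share of sites (percent, vertical axis, from 0) that overlapped the EGR2 list of each other strain, untreated and at 24 h of IL-4 (horizontal axis), for the 3 sets of C57 sites, with exact 95% intervals. Early-listed sites lay between the other sets in every list. Their PWK share went from 11.3% at basal to 43.5% at 24 h, while the PWK list went from 6201 to 14919 peaks.

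The shares of early-listed sites that overlapped lists of the other factors lay above those of sites listed only at 24 h in each list. STAT6 lists covered 48.5% of them at basal, 44.6% at 1 h, 50.6% at 6 h and 65.9% (64.8 to 67.0) at 24 h. Sites listed only at 24 h had 34%, 32.4%, 35.1% and 48.3%, and basal-listed sites 49%, 37.9%, 49.3% and 63.6%. PPARγ lists went from 11% of early-listed sites at basal to 47.5% at 24 h, C/EBPβ lists from 26% to 45.8% and PU.1 lists from 65.7% to 73.8%. The lists themselves went from 7627 to 39088 peaks for PPARγ, 18043 to 37499 for C/EBPβ and 85916 to 90308 for PU.1. The part of list length in these shares was not tested. All 4 factors were listed at 26.2% of early-listed sites at 24 h and none at 13%, where sites listed only at 24 h had 18.5% and 25.4%. In the order of times, the first STAT6 list was the basal one at 3438 early-listed sites (48.5%), that of 1 h at 737 (10.4%), 6 h at 324 (4.57%) and 24 h at 770 (10.9%). The other 1816 (25.6%) overlapped no STAT6 list.

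By position, 31.1% of early-listed sites lay within 1000 bp of a gene start (promoters), 36% in introns and 30.6% between genes, with 1.41% in UTRs and 0.861% in coding exons. Promoters held 21.4% of sites listed only at 24 h and 54.0% of basal-listed sites. A protein-coding gene start lay within 50 kb of 5603 early-listed sites (79.1%), giving 4241 genes, while 1482 sites had none. Most genes, 3247, had 1 site. Iqgap1, which encodes a cytoskeletal scaffold, had the most, with 7, followed at 6 by Nek6, Tns3, Ptpn1, Ahnak, Src, Akna and Zmiz1. Ptpn1 encodes a tyrosine phosphatase that acts on JAK kinases, and Src a tyrosine kinase.

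In sequence, the EGR core shown above lay in 54.1% (53.0 to 55.3) of early-listed peaks, 44.8% of those listed only at 24 h and 63.6% of basal-listed peaks, against 52.2% of all 24 h peaks. The 9-letter element lay in 4.11%, 3.67% and 18.8%. Median GC content followed the same order, 52.8%, 49.5% and 61.4%, and its part in these counts was not tested. STAT6 letters lay in 10.8% of early-listed peaks, 7.7% of those listed only at 24 h and 4.5% of basal-listed peaks. Within the early-listed set they lay in 16% of peaks without the basal mark and 6.6% of peaks with it. PU.1 letters (GAGGAAGT) lay in 9.8%, AP-1 letters (TGANTCA) in 17.4% and the C/EBP letters in 13%, where sites listed only at 24 h had 8.7%, 20.0% and 18.6%. A match says only that the letters occur in the peak.

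Across the 267 samples of the series, 82 libraries and 22 lists were used here. Library totals of the time course tables ran from 5728050 to 29050468 reads. H3K4me3 at the starts of macrophage genes was high, with a median of 264 tags over 8 of 8 markers against 5.37 over all regions, although the Csf1r start had a mean of 3.73. No T cell marker start had a region, and 2 B cell markers had 0.86 to 1.86 tags. Starts of 2 of 4 neutrophil (22.3 and 326 tags), 1 of 4 fibroblast (14.6) and 2 of 3 endothelial markers (264 and 382) had regions, and their part in the results was not tested. The 1 h H3K27ac replicate 2 stood apart, with 20.5% of its tags in the table's regions where the other 7 libraries had 41.2% to 69.7%. Bulk ChIP cannot tell a change in all cells from a change in the number of cells that carry a mark.

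H3K27ac, which the rule did not use, could be read in windows of 1000 bp at 6424 of the early-listed sites. Their median level was 69.9 and 68.5 tags at basal, 51.8 and 25.5 at 1 h, 61.6 and 68.8 at 6 h and 58.6 and 59.7 at 24 h. Both 24 h medians lay below both basal ones. The share of tags in the table's regions was 69.7% and 63.8% at basal and 46.4% and 41.2% at 24 h. Its part in the medians was not tested. At 24 h, 183 sites rose (2.85%) and 13 fell by limma at an adjusted p under 0.05, where 1.13% of the 77955 regions of the table rose and 0.327% fell. The median log2 fold change was -0.39 over the sites and -0.22 over all regions. Scaling libraries by their median ratio moved the median of all regions to 0.05 and that of the sites to -0.09. It gave 288 rises and 15 falls at the sites, against 1.74% and 0.245% of all regions. The count of rises was 82 without 24 h replicate 2, 101 and 102 without either 6 h library and 122 without basal replicate 2, and it was 327 and 323, with 241 and 218 falls, without 1 h replicate 1 or 2. At 6 h, 287 sites rose (4.47%) and 107 fell (1.67%), against 2.67% and 2.46% of all regions. Sites listed only at 24 h rose at 4.35% and fell at 2.16%, so the share of rises was near theirs. At 1 h, 106 early-listed sites rose and 659 fell, against 1.37% and 8.36% of all regions. This last split turned with the scaling, to 193 rises and 72 falls, against 2.02% and 0.818% of all regions. The median of all regions moved from -0.63 to 0.09, so no direction is read at 1 h. Without 1 h replicate 2, the library that stood apart, 449 rose and 310 fell at 6 h, and 186 rose and 428 fell at 1 h.

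A second rule, a change of at least 2.5-fold between group means with at least 16 tags in either, has no p-value. It gave 540 sites higher and 408 lower at 24 h, against 3.77% and 7.09% of all regions. At 6 h it gave 596 higher and 477 lower, against 5.59% and 8.63%, and at 1 h 199 higher and 1721 lower, against 2.31% and 20.6%.

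Pol II at 24 h rose at 77 early-listed sites and fell at 9, where 0.503% of all regions rose and 0.174% fell. H3K4me2 could be read at 6131 sites and rose at 28 and fell at 2, against 0.179% and 0.0576% of 67742 regions, with a median level of 67.8 and 64.8 tags at basal and 48.8 and 30.7 at 24 h. These calls rest on single libraries, since there were 46 rises and 4130 falls without 24 h replicate 1 and none without replicate 2, so no direction is read for H3K4me2. H3K4me3 passed the limma test at no site and at 0% of regions. At an unadjusted limma p under 0.05 it had 1723 of the 6131 sites, where 13232 of the 67742 regions did. Of the sites, edgeR called 16 and DESeq2 28.

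The H3K27ac rises lay mainly away from promoters, at 178 of 4328 such sites (4.11%) against 5 of 2096 promoter sites (0.239%). They made up 106 of 2704 sites without the basal EGR2 mark (3.92%) and 77 of 3720 with it (2.07%). Of 536 sites that had neither the mark nor a basal EGR2 peak in any strain, 42 rose (7.84%). The share was 60 of 1816 (3.30%) where all 4 factors were listed at 24 h and 5 of 707 (0.707%) where none was. It was 58 of 1746 (3.32%) where all 4 other strains had EGR2 at 24 h and 5 of 555 (0.901%) where none had.

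H3K27ac rises were unevenly spread by STAT6. Early-listed sites in the STAT6 list of 1 h but not in that of basal cells gained H3K27ac at 99 of 686 (14.4%, 11.9 to 17.3), with no fall. Sites in both STAT6 lists did so at 17 of 2393 (0.71%), and sites in neither at 67 of 2380 (2.82%). Thus 99 of the 183 rises lay at 686 of the 6424 sites. The letters gave the same order, with rises at 84 of 706 peaks that held STAT6 letters (11.9%, 9.60 to 14.5) and at 99 of 5718 that did not (1.73%). By the EGR core, rises stood at 131 of 3366 (3.89%) with it and 52 of 3058 (1.70%) without. Sites listed only at 24 h ran the same way at a lower level, with 58 of 1160 (5.00%) for the STAT6 list of 1 h alone and 44 of 880 (5.00%) for the letters, and basal-listed sites had 27 of 575 (4.70%) and 13 of 351 (3.70%). EGR2 tags at 24 h exceeded both basal libraries at 84.5% of early-listed sites with STAT6 letters and 54.2% of those without. Sites listed only at 24 h had 80.9% and 61.7%, and basal-listed sites 64.0% and 40.7%. Peaks called from these EGR2 libraries chose the members, so nothing is read from these shares.

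**Figure D3:**
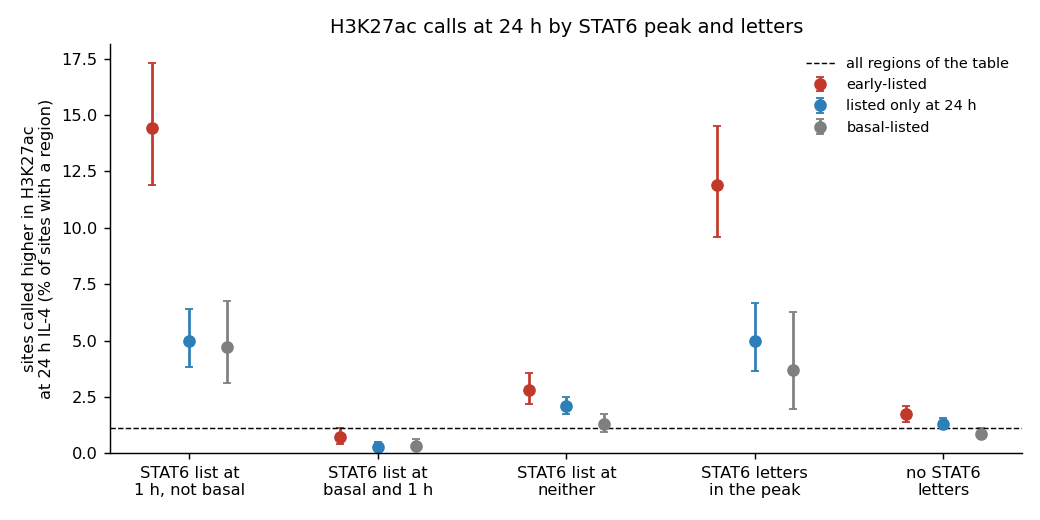
Percent of sites (vertical axis, from 0) whose H3K27ac rose at 24 h by limma, by STAT6 list membership and STAT6 letters (horizontal axis), for the 3 sets of C57 sites, with exact 95% intervals. The dashed line is the 1.13% of all regions that rose. Early-listed sites in the 1 h but not the basal STAT6 list reached 14.4%.

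Among genes of alternative activation, 16 of 25 had an early-listed site within 50 kb, against 19.3% of all protein-coding genes. Their sites rose in H3K27ac at 24 h at 6 of 24 and fell at none. Early-listed sites of all protein-coding genes rose at 121 of 5115 and fell at 7. These shares are the comparison for each gene list below, and the lists were chosen with earlier results of these data known. The 6 rises among genes of alternative activation were those of Slc7a2, Tmem26, Pdcd1lg2, Chil4 and Mgl2 and 1 of the 3 of Arg1. Of those named, the Slc7a2 site, at the promoter of a transporter that brings in arginine, had the largest rise. Its H3K27ac was 10.8 and 4.99 tags at basal, 440 and 29.9 at 1 h, 477 and 411 at 6 h and 396 and 159 at 24 h. Both 24 h libraries lay above both basal ones, as did both 1 h libraries, although these differed from each other (log2 fold change at 24 h 4.90, limma adjusted p = 0.0065). Pol II rose by 3.72 (log2, adjusted p = 0.0137). Its EGR2 tags were 20.6 and 85.9 at basal and 116 and 142 at 24 h, and none of the other 4 factors was listed there in C57.

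The promoter of Pdcd1lg2, which encodes the inhibitory ligand PD-L2, had an early-listed site 43 bp upstream of the start. H3K27ac there was 8.14 and 3.57 tags at basal, 48.7 and 27.2 at 1 h, 96.3 and 74.2 at 6 h and 127 and 112 at 24 h, with no overlap between basal and any later library. The log2 fold change at 24 h was 4.22 for H3K27ac (limma adjusted p = 0.00111) and 4.11 for Pol II (adjusted p = 0.000784). STAT6 was listed there at 1 h, 6 h and 24 h, and not at basal. Chil4, a chitinase-like gene of alternative activation, had a site 2275 bp upstream whose H3K27ac went from 8.14 and 1.43 to 76.4 and 72.8 tags (4.00, adjusted p = 0.00461). At the promoter of Mgl2, a macrophage lectin gene, it went from 9.5 and 34.2 to 90.8 and 188 (2.77, adjusted p = 0.0329), a call that was lost when single libraries were left out (adjusted p up to 0.242).

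Arg1, the gene for arginase, had 3 early-listed sites. The one with the most EGR2 tags at 24 h, 2883 bp upstream, held STAT6 letters but no EGR core. Its EGR2 tags were 41.2 and 22.8 at basal, 8.13 and 111 at 1 h, 21 and 205 at 6 h and 53.4 and 142 at 24 h. The 1 h and the 6 h libraries lay on both sides of the basal ones, and both 24 h libraries lay above them. H3K27ac there was 105 and 133 tags at basal, 592 and 124 at 1 h, 689 and 368 at 6 h and 271 and 278 at 24 h. Both 6 h and both 24 h libraries lay above the basal ones, but the change at 24 h did not pass the test (1.21, limma adjusted p = 0.359). At the Arg1 site 4177 bp upstream the change was 2.70 (adjusted p = 0.074).

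The following sites are outside the naming rule and were chosen after their values were seen, because they hold the calls counted for genes whose site with the most EGR2 tags did not pass. The third Arg1 site, 24956 bp downstream of the start, rose in H3K27ac from 2.71 and 4.28 tags at basal to 34 and 39.4 at 24 h (3.09, limma adjusted p = 0.0261, up to 0.103 with single libraries left out). Tmem26, a membrane protein gene, had an intronic site 2085 bp from its start that rose from 0.68 and 3.57 tags to 106 and 47.3 (4.70, adjusted p = 0.00314, at most 0.0183 with single libraries left out). Its site 17999 bp upstream, with more EGR2 tags, came near the threshold (2.73, adjusted p = 0.0518). So did Mmp12, a macrophage elastase gene (2.36, adjusted p = 0.072), and the Cdh1 site 9016 bp from the start of this E-cadherin gene (2.22, adjusted p = 0.0888).

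Of 12 genes of IL-4 signalling and feedback, 5 had an early-listed site, against 19.3% of all protein-coding genes. H3K27ac rose at 3 of 10 such sites, all 3 of them near Cish. Sites of Il4ra, Jak1, Stat6 and Socs3 did not pass. Cish encodes a SOCS-family inhibitor of cytokine receptors. The site 12032 bp downstream of its start had 15.4 and 26.9 EGR2 tags at basal, 93.9 and 338 at 1 h, 203 and 500 at 6 h and 303 and 362 at 24 h. Every treated library lay above both basal ones. H3K27ac followed, with 4.75 and 1.43 tags at basal, 39.4 and 19.6 at 1 h, 87.0 and 105 at 6 h and 89.1 and 89.3 at 24 h. The log2 fold change at 24 h was 4.59 (limma adjusted p = 0.000825), and 3.17 for Pol II (adjusted p = 0.0175). In reads, the 24 h libraries held 241 and the basal ones 9, a ratio per library total of 28.5 (exact 95% interval 14.8 to 63.1). The site held STAT6 letters, the EGR core and C/EBP letters, and STAT6 was listed there from 1 h but not at basal. The other Cish calls, 10250 and 7286 bp downstream, were 2.96 (limma adjusted p = 0.0186) and 2.77 (adjusted p = 0.0479), and each was lost when single libraries were left out (up to 0.137 and 0.36). At the promoter sites of Stat6 itself the changes were -1.27 and -1.22 (adjusted p = 0.254 and 0.3), and at the Socs3 site -0.30 (adjusted p = 0.865).

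**Figure D4:**
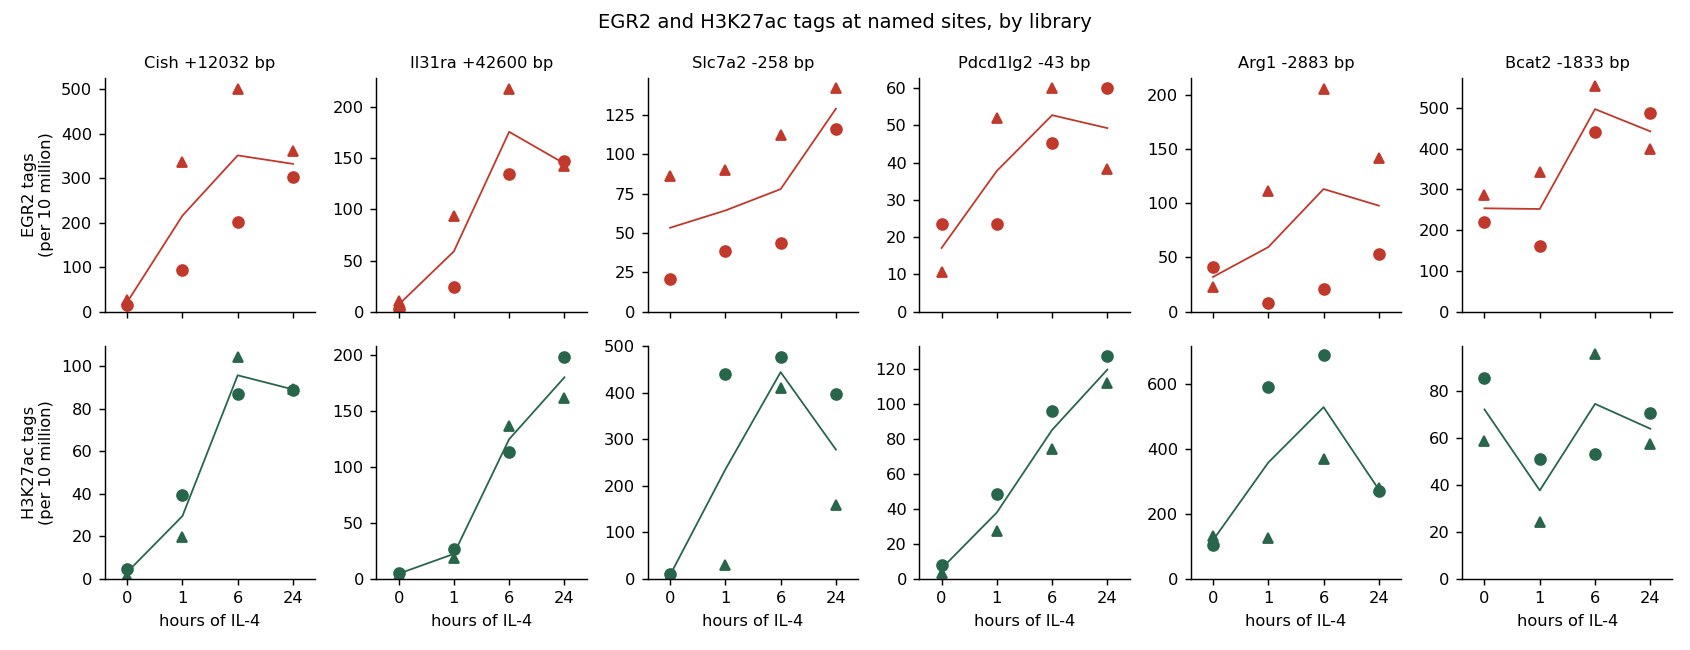
EGR2 tags (top row) and H3K27ac tags (bottom row), normalized as above, on the vertical axes, by time of IL-4 on the horizontal axis, at the sites near Cish, Il31ra, Slc7a2, Pdcd1lg2, Arg1 and Bcat2. Circles are replicate 1, triangles replicate 2 and lines the mean of both. At Cish EGR2 went from 15.4 and 26.9 to 303 and 362 tags and H3K27ac from 4.75 and 1.43 to 89.1 and 89.3, while H3K27ac at Bcat2 went from 85.5 and 58.5 to 70.4 and 57.1.

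Of 21 transcription factor genes, 15 had an early-listed site, against 19.3% of all protein-coding genes. H3K27ac rose at 4 of 31 of their sites, against 121 of 5115 over all these genes. Batf3, which encodes a partner of AP-1 and IRF factors, had a site whose H3K27ac was 2.04 and 3.57 tags at basal, 20.1 and 21 at 1 h, 42.4 and 51.7 at 6 h and 39.9 and 114 at 24 h. All later libraries lay above the basal ones (4.20, limma adjusted p = 0.00145). Its EGR2 tags, 20.6 and 21.5 at basal and 166 and 73.9 at 24 h, did not overlap either. At the promoter of Irf4, a factor of alternative activation, Pol II rose (1.53, adjusted p = 0.04), while H3K27ac went from 11.5 and 17.1 to 44.1 and 53.8 tags without passing the test (1.72, adjusted p = 0.129). The other 3 rises, at sites named after their values were seen, lay 34438 bp upstream of Irf4 (3.24, limma adjusted p = 0.00875), 11658 bp downstream of the start of Bhlhe40 (3.08, adjusted p = 0.0129) and 30317 bp downstream of that of Nab1 (2.61, adjusted p = 0.0304). Each of these 3 was lost when some single libraries were left out, with adjusted p up to 0.13, 0.105 and 0.178. Among the lineage factors, the sites with the most EGR2 tags at Spi1, which encodes PU.1 (-1.02), Cebpa (0.84) and Cebpb (-1.0) did not pass. Egr2 itself had no early-listed site.

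Lipid genes had early-listed sites at 8 of 12, and H3K27ac passed the test at 0 of 13 such sites by limma. Values ran from -1.13 at a promoter site of Cpt1a, the gate of mitochondrial fatty acid import, to 1.85 at an intronic site of the same gene. The site of Abcg1, a cholesterol exporter, with the most EGR2 tags had 1.81, and its EGR2 tags went from 7.49 and 6.71 at basal to 61.9 and 79.7 at 24 h. Inflammatory genes had sites at 5 of 12, with 0 of 10 higher and 1 lower. That one lay in an intron of Art3, 25906 bp upstream of Cxcl10, the gene of a T cell chemokine, and fell from 377 and 263 tags to 46.7 and 51.2 (-2.66, limma adjusted p = 0.0194, up to 0.108 with single libraries left out). Repair and matrix genes had sites at 6 of 10, and none of 10 passed.

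The largest H3K27ac rises of all early-listed sites, chosen by those values, were at Tex9, at 2 sites with no gene start within 50 kb, at Il31ra and at Slc7a2. Tex9 encodes a testis-expressed protein, and Il31ra a receptor chain of the IL-6 family. At the Tex9 site H3K27ac was 1.36 and 0 tags at basal and 51.8 and 100 at 24 h (5.57, limma adjusted p = 0.000825). With only 2 reads at basal against 214, the ratio per library total was 114 with an exact interval of 31.2 to 947, and the fitted fold depends on the pseudocount. The Il31ra site went from 5.43 and 3.57 to 199 and 161 tags (5.05, adjusted p = 0.00048), its Pol II rose by 4.65 (log2, adjusted p = 0.000384), and its EGR2 tags went from 2.81 and 10.7 to 148 and 142. An intronic site in Nbas on chromosome 12 (13410295 to 13410496) rose by 5.42 (adjusted p = 0.00048), and an intergenic site on chromosome 10 (85266351 to 85266561) by 4.80 (adjusted p = 0.0022). STAT6 was listed at 1 h and not at basal at the first 4 of these 5, but not at Slc7a2. The largest falls, such as that 4954 bp upstream of Krt80 (-2.69, adjusted p = 0.0224), were each lost when some single libraries were left out.

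Deletion of Egr2 was read in a deposited table of 4677 IL-4-induced EGR2 sites, which covers 1121 of the early-listed sites, only 24 of them with the basal mark. H3K27ac at 24 h was lower in LyzM-Cre Egr2 fl/fl than in Egr2 fl/fl cells at 275 of the 1121 (24.5%) and higher at 21, where 23.2% of all table sites were lower and 1.41% higher. The share lower was thus near that of the whole table. The median early-listed site had 67.3 and 68.7 tags in Egr2 fl/fl and 42.6 and 46.4 in LyzM-Cre Egr2 fl/fl at 24 h, and 34.9 and 32.6 against 26.1 and 29.2 in untreated cells. The median log2 difference was -0.34, against -0.50 over the table. The split depended on the scaling. Median-ratio scaling moved the median of the table to -0.03 and that of early-listed sites to 0.17. It gave 129 lower (11.5%) and 203 higher (18.1%), where 10.6% of all table sites were lower and 11.5% higher. On recovered reads edgeR gave 150 lower and 220 higher, and DESeq2 92 and 176. A fall at a single site below is therefore given with its value under library totals and under median ratio. Leaving out a 24 h library gave 132 and 118 lower sites for Egr2 fl/fl replicates 1 and 2 and 165 for LyzM-Cre Egr2 fl/fl replicate 1.

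Falls by genotype under library totals were counted by STAT6 list, EGR core, strain and time of listing, with no test between the counts. They stand beside 24.5% lower over the early-listed sites and 23.2% over the table. Since falls and rises turned with the scaling, these counts hold for library totals only. Early-listed sites outside the STAT6 list of 1 h were lower at 167 of 498 (33.5%), and those in it at 108 of 623 (17.3%). With the EGR core 28.1% were lower and without it 20.0%. Where EGR2 was listed at 24 h in all 4 other strains 32.2% were lower, and where in none 14.9%. By early list, 122 of 404 sites of the 6 h list alone, 67 of 355 of the 1 h list alone and 86 of 362 of both were lower. Of 954 sites with values in both tables, 89 rose at 24 h in C57 and 232 were lower by genotype. There were 36 in common, 40.4% of the former and 15.5% of the latter.

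The largest falls by genotype, chosen by those values, were at sites near Pzp, Spata21, Rwdd1 and Sema4b and at an intergenic site on chromosome 4 (125177894 to 125178106). At the Rwdd1 site, in the gene of a ribosome-associated protein, H3K27ac at 24 h was 91.5 and 64.2 tags in Egr2 fl/fl and 4.16 and 3.48 in LyzM-Cre Egr2 fl/fl. The 2 groups were far apart (-4.01, limma adjusted p = 0.000137, and -3.50, adjusted p = 0.00145 by median ratio). At Sema4b, a semaphorin gene, the values were 40.2 and 30.2 against 1.04 and 1.74 (-3.92, adjusted p = 4.88e-05, and -3.44 by median ratio). The Pzp site, near an alpha-2-macroglobulin family gene, had 77 reads against 1, a ratio of 81.0 with an exact interval of 14.1 to 3241, and the Spata21 site 102 against 3, a ratio of 35.8 (11.9 to 176). Both passed under each scaling. All 5 held the EGR core, and only the Rwdd1 site held STAT6 letters.

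Several sites that rose with IL-4 in C57 were lower in LyzM-Cre Egr2 fl/fl. At Tex9, H3K27ac at 24 h was 111 and 86.1 tags in Egr2 fl/fl and 11.4 and 13.9 in LyzM-Cre Egr2 fl/fl (-2.85, limma adjusted p = 0.000986, and -2.33, adjusted p = 0.00753 by median ratio). At Il31ra it was 65.3 and 115 against 12.5 and 22.6 (-2.30, adjusted p = 0.00529, and -1.77, adjusted p = 0.0286). The genotypes did not overlap at either site. At the Cish site the values were 204 and 166 against 102 and 75.5 (-1.06, adjusted p = 0.0181), and at Batf3 33.2 and 55.9 against 11.4 and 14.5 (-1.67, adjusted p = 0.0261). Neither passed by median ratio (-0.53, adjusted p = 0.229, and -1.15, adjusted p = 0.131). The Cish site of both genotypes still had more than its own untreated cells, 15.3 and 11.5 in Egr2 fl/fl and 6.02 and 8.41 in LyzM-Cre Egr2 fl/fl, a difference that was not tested here.

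At Abca1, a cholesterol exporter gene, the site without an EGR core had 48.2 and 55.2 tags against 10.4 and 13.3 (-2.04, limma adjusted p = 0.000952, and -1.52, adjusted p = 0.00795 by median ratio). The sites with the most EGR2 tags at Tmem26 (-1.15), Cdh1 (-0.71), Lpl, the lipoprotein lipase gene (-1.10), and Bhlhe40, a transcription factor gene (-0.74), were lower under library totals only. Under median ratio their adjusted p-values lay between 0.142 and 0.556. The Arg1 site did not pass, with 348 and 369 tags against 422 and 373 (0.15, adjusted p = 0.646), but was higher in LyzM-Cre Egr2 fl/fl by median ratio (0.68, adjusted p = 0.0186). The Abcg1 site passed under neither (-0.08, adjusted p = 0.81, and 0.45, adjusted p = 0.0955).

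Other sites of listed genes had larger falls, and are named here after their values were seen. Over all protein-coding genes, 187 of 751 early-listed sites with genotype values were lower under library totals and 15 higher. Of the 14 transcription factor sites with such values 7 were lower and 0 higher, with 3 of the 7 near Bhlhe40. By median ratio 3 of the 7 were still lower, near Spi1, Bhlhe40 and Egr1, and 3 others were higher, near Batf3, Runx1 and Egr3. A site 8634 bp downstream of the start of Spi1 had 75.4 and 80.9 tags in Egr2 fl/fl and 9.35 and 14.5 in LyzM-Cre Egr2 fl/fl at 24 h (-2.64, limma adjusted p = 0.000167, and -2.12, adjusted p = 0.00169 by median ratio). The genotypes lay apart there in untreated cells too, at 29.8 and 29.2 against 11 and 16.8. The Bhlhe40 site 29321 bp upstream had 67.3 and 68.7 tags against 13.5 and 26.1 (-1.80, adjusted p = 0.00285, and -1.27, adjusted p = 0.0227 by median ratio). Near Myc (-1.58, adjusted p = 0.0141) and 3460 bp into Cdh1 (-1.94, adjusted p = 0.0222, from 14.1 and 8.99 to 2.08 and 2.32 tags) the fall did not pass by median ratio (adjusted p = 0.0891 and 0.081).

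**Figure D5:**
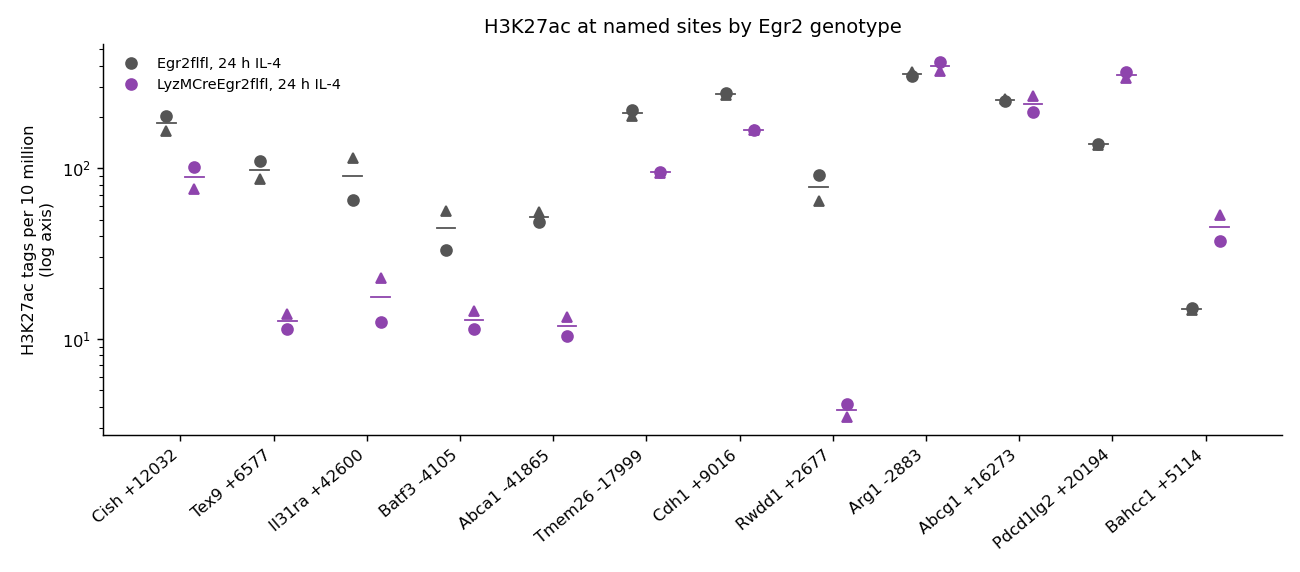
Normalized H3K27ac tags (log axis) at 24 h of IL-4 in Egr2 fl/fl and LyzM-Cre Egr2 fl/fl libraries at 12 early-listed sites named by gene. Circles are replicate 1, triangles replicate 2 and short bars the mean of the 2 libraries of a genotype. The genotypes lay furthest apart at Rwdd1, 91.5 and 64.2 against 4.16 and 3.48, and ran the other way at Bahcc1 and at the intronic site of Pdcd1lg2.

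Rises by genotype were few under library totals, at 21 of 1121 early-listed sites. By median ratio there were 203 rises (18.1%, against 11.5% of the table) and 129 falls (11.5%, against 10.6%). An intronic site 20194 bp into Pdcd1lg2, apart from its promoter site, had 140 and 137 tags in Egr2 fl/fl and 369 and 340 in LyzM-Cre Egr2 fl/fl (1.35, limma adjusted p = 0.00027, and 1.88, adjusted p = 0.0003 by median ratio). In C57 the same site had 285 and 144 tags at basal and 231 and 90.6 at 24 h, with no change that passed. An intronic site of Bahcc1 rose from 15.1 and 14.8 to 37.4 and 53.4 (1.52, limma adjusted p = 0.00342 under library totals).

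The other marks and factors of the genotype comparison gave fewer calls, and most turned with the scaling. H3K4me2 was lower at 83 of the 1121 sites and higher at 1 (84 calls, against 9.09% of the table). By median ratio it was lower at 47 and higher at 18, against 3.61% and 0.962% of the table. PU.1 tags, read at 1086 sites, were lower at 103 and higher at 1, against 9.45% of the table. Their medians were 30.0 and 31.5 in Egr2 fl/fl and 23.4 and 23 in LyzM-Cre Egr2 fl/fl. By median ratio PU.1 was lower at 63 and higher at 59, against 5.20% and 3.06% of the table. C/EBPβ was lower at 54, against 8.25%, with medians of 20.9 and 17.5 against 6.78 and 8.58, and at 0 by median ratio. On recovered reads its direction turned, with 19 higher and 4 lower by edgeR and 37 higher and 0 lower by DESeq2, so no direction is read. For PU.1 edgeR gave 137 higher and 106 lower, and DESeq2 25 and 27. STAT6 passed at 1 site, against 0.0214%, with medians of 14.9 and 11.5 against 7.74 and 4.51. At an unadjusted limma p under 0.05 it had 216 of the 1086 sites, where 702 of all 4677 did. At an unadjusted limma p under 0.05 PPARγ had 169 of the 1086 sites, where 670 of all 4677 did. It passed at 0 by limma and edgeR, against 0%, with medians of 9.73 and 14.2 against 4.17 and 0. The second LyzM-Cre Egr2 fl/fl PPARγ library thus had no reads at the median site, and neither did the second untreated library of either genotype. By library left out, the PPARγ calls reached 40 and 36 without either 24 h Egr2 fl/fl library, where PU.1 and C/EBPβ both went to 0.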

How the data were processed

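ChIP-seq of EGR2, STAT6, PPARγ, PU.1, C/EBPβ, H3K27ac, H3K4me2, H3K4me3 and Pol II in mouse BMDMs was used as deposited. The authors aligned reads with Bowtie2 (mm10), called peaks with HOMER and kept reproducible ones by IDR. The deposited peak lists give positions, a score and a count or ratio per peak, and the score was used here only to rank peaks. In the deposited tag tables the authors give normalized signal, tags per 10000000 reads of a library, in windows at the sites (1000 bp for marks and Pol II, 300 bp for factors). Library totals in the headers returned the reads, and 100% of values came out whole within 0.1 reads. Columns of 4 libraries matched no sample and were left out.

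Each site took the table region whose centre was nearest within 500 bp. limma 3.58.1 was fitted to log2(tags + 1) over every region of a table, all groups of a target sharing the spread, with Benjamini-Hochberg adjustment over all regions and a threshold of 0.05. Fold changes are on this scale and understate those of low sites. The fits were tested on simulated data. Genes are the nearest protein-coding start within 50 kb, and promoters reach 1000 bp from a start. Clec7a was not in the annotation used and is not analysed here. Motifs were searched as exact letters on both strands in the 7083 members on placed chromosomes, since 2 lay on contigs with no sequence used here.

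Named sites are, for each listed gene, its member with the most EGR2 tags at 24 h, the 5 members with the most such tags, the 5 largest rises and falls of H3K27ac at 24 h, and the 5 largest falls and 3 largest rises by genotype with replicates apart. The other members of listed genes, with the same alternatives, were added after the data were seen. The members, gene lists and motifs were chosen with earlier results of these data known. Alternatives were another pseudocount (5), a filter at 16 tags (8 for Pol II), median-ratio scaling, edgeR 4.0.16 and DESeq2 1.42.0 on the recovered reads, the replicate number as a block, each library left out, other overlaps and score limits, and, added after the data were seen, sites without the basal mark. No 2 replicates agreed within sampling noise (chi-square per degree of freedom 1.50 to 19.2 over 46 pairs).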

Additional observations from a re-analysis of the deposited data

How the results depend on the processing

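The number of early-listed sites was 7083 when overlaps had to cover 0.5 of the peak and 5007 from the 6 h list alone, but 3471 from the upper part of each list by score, 3251 when both early lists were asked and 3118 without the basal mark of the tag table, an alternative chosen after seeing the data. With an overlap of 0.5 of the peak, with the upper part of the other list and without the basal mark, in this order, the STAT6 share was 62.9%, 45.4% and 63.1%, PPARγ 37.9%, 31.9% and 44.7%, PU.1 65.3%, 56.1% and 71.4%, C/EBPβ 40.3%, 30.2% and 40.03%, BALB 80.0%, 62.3% and 79.9%, NOD 51.4%, 18.5% and 46.8%, PWK 38.1%, 15.8% and 36.4% and SPRET 68.3%, 54.7% and 67.9%. The EGR core stood at 41.9% in a window 100 bp wide at the centre and 53.0% without the basal mark, and the 9-letter element in place of the core at 4.11% of whole peaks.

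By the fold rule, higher sites at 1 h were 351 with no minimum and 452 by median ratio. Lower sites were 330 at 1 h and 148 at 24 h by median ratio, and 2656, 870 and 1049 at 1 h, 6 h and 24 h at 2-fold. Calls of H3K27ac in either direction were 265 at 1 h and 303 at 24 h by median ratio, 266 at 1 h by edgeR, and 776 at 6 h and 544 at 24 h by DESeq2. Pol II had 216 by DESeq2. H3K4me2 had 11 under the filter, 75 by median ratio, 88 by edgeR and 51 by DESeq2, and H3K4me3 16 by edgeR and 28 by DESeq2. By genotype, H3K4me2 had 27 under the filter and 19 by DESeq2. STAT6 had 67 with a pseudocount of 5, 4 by edgeR and 0 by the filter, median ratio or DESeq2. PU.1 had 160 with the pseudocount, 65 under the filter, 243 by edgeR and 52 by DESeq2, and C/EBPβ, all lower as reported, 118 with the pseudocount, 1 under the filter, 0 by median ratio, 23 by edgeR (19 of them higher) and 37 by DESeq2 (all higher). The cause was not tested.

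With the replicate number as a block, calls were 2146, 976 and 703 for H3K27ac at 1 h, 6 h and 24 h, 268 for Pol II, 76 for H3K4me2, 1620 for H3K4me3 and 92 for STAT6 by genotype. The groups share only numbers. No target with 3 or more pairs had every correlation of same-numbered libraries over 0.1 (0.014 to 0.452 for H3K27ac in the time course). The numbers were therefore not taken to pair the libraries. Every correlation was positive, however, and the highest, 0.452, was that of basal with 24 h H3K27ac. H3K4me2 and H3K4me3 in C57, with fewer pairs, had 0.287 and 0.25. Whether the libraries were paired was thus not settled, and the counts of calls depend on it.

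With 1 library left out, calls ran from 18 to 2862 for H3K27ac at 1 h, 39 to 782 at 6 h and 85 to 568 at 24 h, from 15 to 189 for Pol II, 0 to 4176 for H3K4me2 and 0 to 0 for H3K4me3. The fold rule ran from 72 to 428 higher and 1067 to 3476 lower at 1 h, 598 to 742 and 369 to 669 at 6 h, and 463 to 646 and 471 to 735 at 24 h. Genotype calls ran from 127 to 308 for H3K27ac, 30 to 85 for H3K4me2, 0 to 4 for STAT6, 0 to 40 for PPARγ, 0 to 142 for PU.1 and 0 to 57 for C/EBPβ. A group left with 1 library is assumed to vary like the others. Single libraries moved H3K27ac most at 1 h (18 without basal replicate 2, 306 without basal replicate 1, 2862 without 1 h replicate 1, 121 and 123 without either 6 h library) and at 6 h (153 without basal replicate 2, 782 and 759 without the 1 h libraries, 41 and 39 without those of 6 h). Pol II gave 189, 36, 38 and 31 without each basal library, 52 and 55 without those of 6 h and 15 and 25 without 24 h replicates 1 and 2. H3K4me2 gave 4176 without 24 h replicate 1, of which 4130 were falls, 0 without replicate 2 and 11 and 18 without those of basal. By genotype, H3K4me2 gave 39 and 30 without the 24 h Egr2 fl/fl libraries and 38 without LyzM-Cre Egr2 fl/fl replicate 1, PU.1 27 and 62 without the LyzM-Cre Egr2 fl/fl ones and C/EBPβ 10 and 0. Of single sites, 1927 alternatives kept the side of the threshold, 135 crossed to pass, 123 ceased to pass and 21 uncalled values moved. A site 14841 bp upstream of Egr3 turned from an uncalled -0.02 by genotype to 0.52 by median ratio and 0.54 by edgeR. With 2 libraries a group, changes smaller than the spread between them were not detectable.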
